A study of Mus musculus with 6 samples.

Results

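The regions described here are the H3K27ac peaks of the mouse Ewing sarcoma line ES49 that lie on or within 1 kb of an H3K27me3 peak of the same line, on chromosomes 1 to 19. There were 333 such peaks among the 29009 ES49 H3K27ac peaks on these chromosomes (1.15%). Of these, 202 (0.696% of the list) shared at least 1 bp with H3K27me3 and are called overlapping, and 131 (0.452%) stood up to 1000 bp away from it and are called flanking. They were chosen by position alone, from the ES49 H3K27ac and H3K27me3 peak lists. The 643 H3K27ac peaks on chromosomes X and Y were outside the rule.

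The study mapped chromatin by ChIP-seq in ES48 and ES49, both lines of sarcoma cells induced by the fusion oncoprotein EWS-FLI1 on a Balb/c background and grown without further treatment. EWS-FLI1 was precipitated with a FLAG antibody in each line, H3K27ac in each line, and H3K27me3 in ES49 alone. An ES49 input DNA sample was not analysed here. Each antibody and line is 1 library, so no comparison below has a test over samples, and H3K27me3 in ES48 is unknown. The lists hold no read counts, so the depth is unknown. The 95% Clopper-Pearson intervals cover counting error only. They treat peaks as independent, and neighbouring peaks are not, so they are too narrow even for that.

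Lysine 27 of histone H3 can carry either an acetyl group or methyl groups on a given tail. Acetylation marks active promoters and enhancers and is placed chiefly by the acetyltransferases p300 and CBP. Trimethylation is placed by Polycomb repressive complex PRC2 and marks silenced developmental genes. Peaks of both marks at one position can arise from the 2 tails of a nucleosome, from the 2 alleles, or from different cells of a culture, and peak lists do not tell these apart. EWS-FLI1 joins part of EWSR1 to the DNA-binding domain of FLI1, a factor of the ETS family, and drives Ewing sarcoma. Regions are named by position in the mm9 build. No annotation of that build was used, so no gene is assigned to them and no sequence is printed.

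The median H3K27ac peak at H3K27me3 was shorter and had a lower score than that of the whole list. The overlapping peaks had a median width of 621 bp (quartiles 429.5 and 1298) and the flanking peaks 661 bp (452 and 1274), beside 836 bp (451 and 1632) for all ES49 H3K27ac peaks on chromosomes 1 to 19. The peak caller's score, which starts at 50 in this list and was used only within a list, had a median of 115 in overlapping peaks, 129 in flanking peaks and 165 in all. Scores under 100 were held by 47.5% of overlapping, 45.0% of flanking and 38.5% of all peaks. A smaller set was strong: 12 overlapping and 7 flanking peaks were in the upper 10% of the whole list by score (5.94% and 5.34%, beside 10.1% of all peaks). The rule depends on where peaks begin and end, so widths and scores are given as a description.

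**Figure D1:**
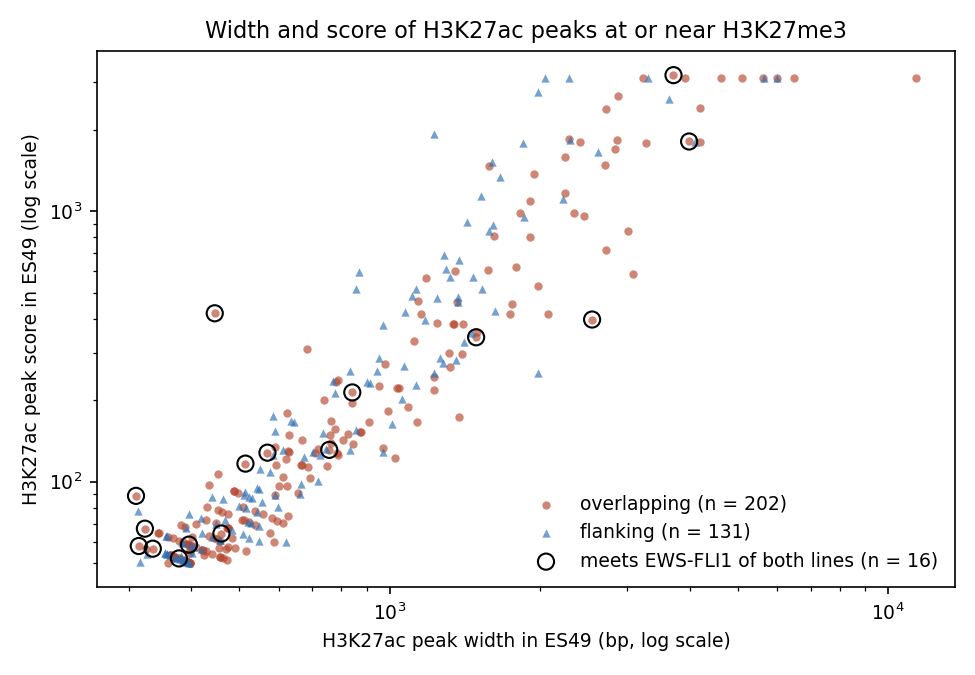
Width (bp, log scale) and caller's score (log scale) of each of the 202 overlapping (circles) and 131 flanking (triangles) ES49 H3K27ac peaks, with rings around the 16 that meet EWS-FLI1 of both lines. All 13 peaks at the score of 3100, where many scores level off, were over 2000 bp wide.

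The 2 marks met in 3 ways. In 68 of the overlapping peaks the whole H3K27ac peak was covered by H3K27me3. These were short H3K27ac peaks, with a median of 446 bp and a median score of 63.7, under H3K27me3 peaks with a median width of 3094 bp. In 37 the H3K27ac peak held its main H3K27me3 partner, the peak sharing most bases with it, from end to end. These H3K27ac peaks were wider (median 1338 bp, score 384) and the H3K27me3 peaks in them were short (median 388 bp). In the remaining 97 the peaks crossed at an edge, with a median overlap of 373 bp.

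In all, the overlapping peaks shared 139 kb with H3K27me3, 60.7% of their own length of 229 kb. The 10 longest overlaps held 30.2% of that shared length, while 12 overlaps were of 100 bp or less and 29 were of 1000 bp or more. The overlapping peaks met 221 of the 19412 H3K27me3 peaks on chromosomes 1 to 19 (1.14%), and 28 of them met more than 1, up to 6. The partner H3K27me3 peaks were wide, with a median of 1192 bp and a score of 282, beside 500 bp and 89.7 for all H3K27me3 peaks. The partners of the flanking peaks were smaller, at 662 bp and a score of 104. Wide peaks are met more often for their size alone, so these values too are a description.

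Flanking peaks stood a median of 525 bp from H3K27me3. The gaps ran from 12 to 1000 bp. H3K27me3 lay on the lower-coordinate side alone of 70 peaks, on the other side alone of 59, and on both sides of 2. Counted in steps of 250 bp, the numbers were 26, 38, 37 and 30. The first kilobase held 131 peaks, the next held 99, the one after that 96, and the last one counted, up to 4000 bp, 72. ES48 H3K27ac peaks, measured against the same ES49 H3K27me3 list, gave 136, 98, 94 and 90, with 1 peak that touched H3K27me3 at a gap of 0 counted in the first.

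**Figure D2:**
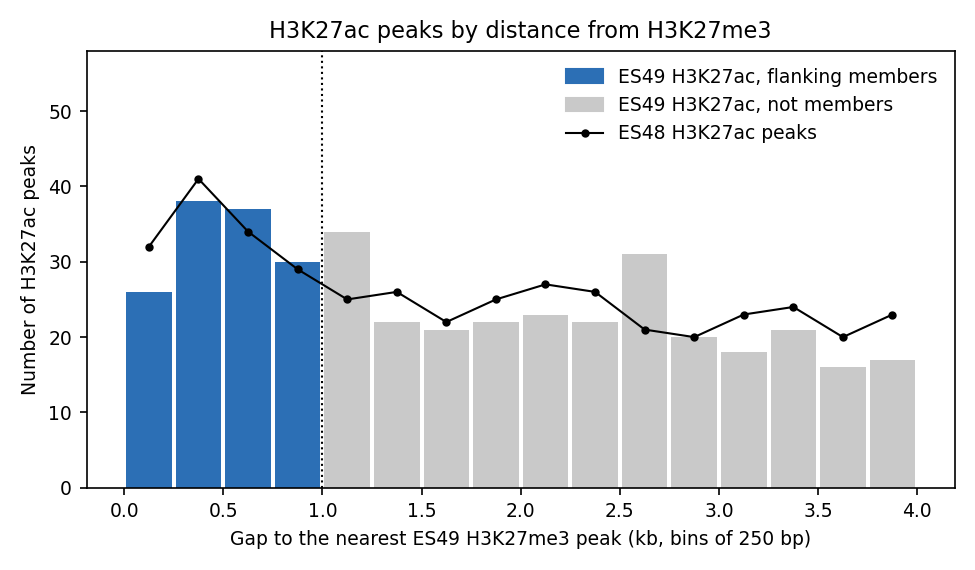
Number of H3K27ac peaks by gap to the nearest ES49 H3K27me3 peak (kb, bins of 250 bp, peaks that overlap H3K27me3 left out). Bars are ES49 peaks, blue within the 1 kb limit (dotted line) and grey beyond it, and the line with points is ES48. Both lines had more peaks in the first kilobase, 131 and 136, than in the next, 99 and 98.

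The limit of 1 kb fell where the counts were alike, with 30 peaks in the last 250 bp inside it and 34 in the first 250 bp outside. Just inside it were chromosome 11 105897652 to 105899180, at a gap of 1000 bp with a score of 1139.6, chromosome 7 53127787 to 53129837, at 993 bp with 3100, and chromosome 13 23503196 to 23503932, at 985 bp with 151.5. Just outside were chromosome 11 77706737 to 77708324 at 1010 bp with a score of 516.6, chromosome 4 42962514 to 42963700 at 1038 bp with 546.8, and chromosome 5 118830901 to 118831284 at 1039 bp with 51.4. All 6 were acetylated in ES48.

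The peaks were spread over all 19 autosomes but unevenly. Chromosome 11 held 50 overlapping and 24 flanking peaks. Together these were 2.31% of its H3K27ac peaks, the highest share of the 19, followed by 1.86% on chromosome 12 and 1.78% on chromosome 18. The lowest was 0.298% on chromosome 19, with 0 overlapping and 2 flanking peaks. Chromosome 11 also held 14.2% of the H3K27me3 peaks and 11.1% of the H3K27ac peaks that the rule drew on, beside 24.8% of the overlapping and 18.3% of the flanking peaks. Joined at less than 50 kb, the 333 peaks fell into 242 loci, of which 185 had 1 peak, 45 had 2 and 12 had 3 or more. Both classes met in 29 loci, and 34 of the 131 flanking peaks shared a locus with an overlapping peak.

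The locus with the most peaks, from 52166847 to 52197340 on chromosome 6, held 8 overlapping and 2 flanking peaks. The H3K27ac peak at 52173978 to 52185352, 11375 bp long with a score of 3100, lay wholly within the H3K27me3 peak at 52173920 to 52187190, which had a score of 3205.8. This was the longest overlap of the 2 marks on chromosomes 1 to 19. A pair of small H3K27ac peaks of 402 and 378 bp, with scores of 62.4 and 60.4, lay in the same H3K27me3 peak, and a flanking peak at 52171291 to 52173152 (score 952.7) ended 767 bp before it. Further along, 52189584 to 52191830 (score 1583.0) shared 1964 bp and 52192726 to 52197340 (score 3100, 4615 bp) was wholly covered by an H3K27me3 peak of 7676 bp. Over the whole stretch of 30.5 kb, H3K27me3 covered 22.6 kb, ES49 H3K27ac 23.6 kb and shared 20.7 kb of it. ES48 H3K27ac covered 27.9 kb in 3 peaks, 1 of them 21722 bp long, and met all 10 of the ES49 peaks. Of all ES49 H3K27ac peaks on chromosomes 1 to 19, 68.3% were met.

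Chromosome 11 held the next loci. Between 118856872 and 118953193 there were 5 overlapping and 3 flanking peaks, and here the marks alternated more than they coincided, with 3.60 kb shared out of 23.6 kb of H3K27ac and 26.4 kb of H3K27me3. The overlapping peak with the highest score, 118897572 to 118903565 (5994 bp, score 3100), crossed by 993 bp into an H3K27me3 peak with a score of 2692.5. The flanking peak at 118943731 to 118949385 (also 3100) stopped 316 bp short of an H3K27me3 peak with a score of 2065.4, and a further H3K27ac peak, 118951396 to 118953193, shared 1053 bp with the far end of that H3K27me3 peak. Of the 8 peaks, 4 were met by ES48 H3K27ac, beside 68.3% of all ES49 H3K27ac peaks.

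Between 120045631 and 120105283 the picture was the opposite. Of 19.4 kb of H3K27ac, 13.2 kb were shared with H3K27me3. The peak at 120094542 to 120099627 (5086 bp, score 3100) was wholly covered by an H3K27me3 peak of 7998 bp with a score of 3100, and 120045631 to 120052117 (6487 bp, score 3100) met 6 separate H3K27me3 peaks over 4558 bp. All 6 of the peaks here were met by ES48 H3K27ac, 5 of them by a single ES48 peak of 16849 bp. A locus at 98155994 to 98256124 held 4 overlapping peaks, with overlaps of 208 to 473 bp, and 1 flanking peak, in a stretch with 49.5 kb of H3K27me3. Of the 5 loci with 4 peaks, those with the longest shared length were chromosome 12 28023616 to 28028395 and chromosome 11 94329790 to 94335912, with 2.88 and 2.58 kb shared. All 8 of their peaks were met by ES48 H3K27ac, in 2 ES48 peaks at the first locus and 1 at the second. Of all ES49 H3K27ac peaks, 68.3% were met, and peaks met by the same ES48 peak are not separate cases.

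In another locus of 4 peaks, on chromosome 3, 34547553 to 34550776 (3224 bp, score 3100) shared 1800 bp with 2 H3K27me3 peaks, and a flanking peak began 783 bp past them, at 34551295. Both were acetylated in ES48. The other peaks of the locus, 34562906 to 34563667 and 34563944 to 34564458, had scores of 167.4 and 80.0 and no ES48 H3K27ac.

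**Figure D3:**
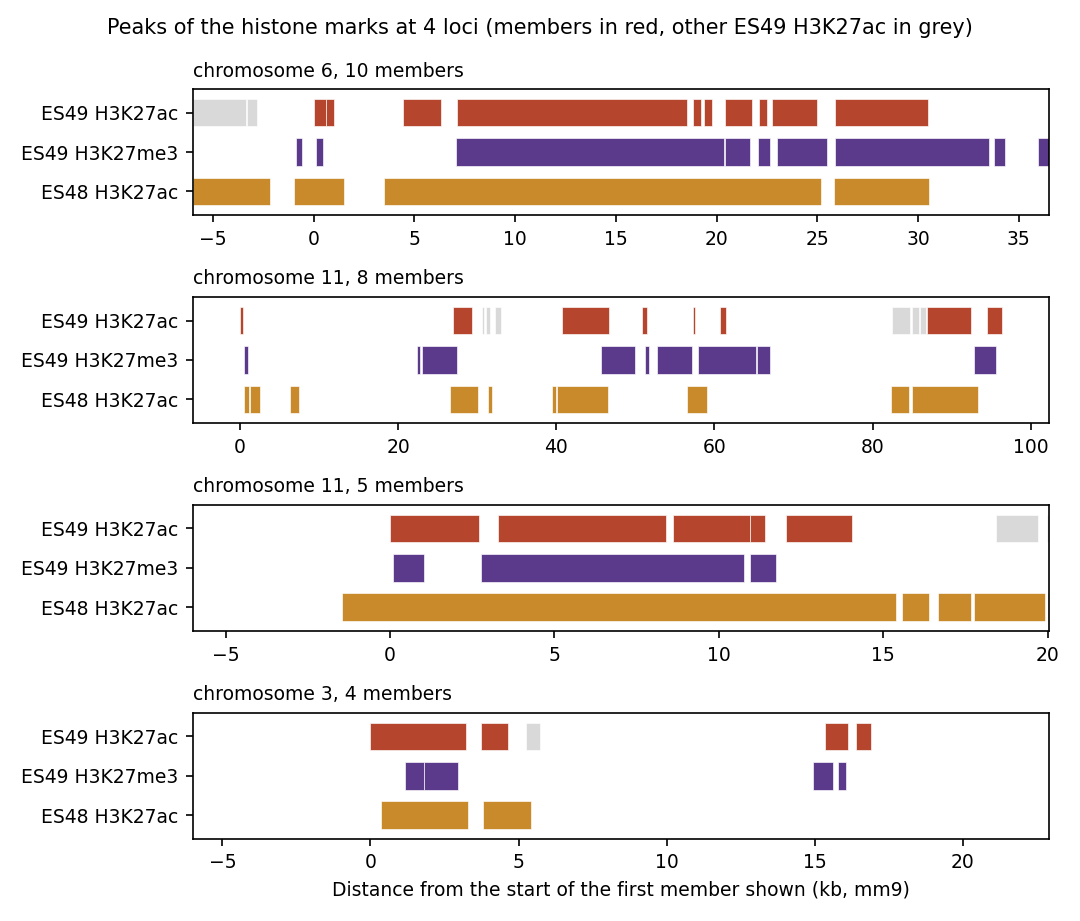
Peaks of the histone marks at 4 loci, drawn to scale as distance in kb from the first member shown, with the H3K27ac peaks of the rule in red, other ES49 H3K27ac in grey, ES49 H3K27me3 in purple and ES48 H3K27ac in ochre. At the chromosome 6 locus 20.7 kb carried both ES49 marks, and at the chromosome 11 locus of 8 peaks 3.60 kb did.

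Among the 10 overlapping peaks with the highest scores, those not yet named were 80638413 to 80642126 on chromosome 10 (score 3188.3), 152220847 to 152224761 on chromosome 2 (3100), 154334562 to 154340187 on chromosome 4 (3100) and 15554239 to 15557117 on chromosome 13 (2666.2). They shared 303, 741, 1666 and 1647 bp with H3K27me3. All 10 were met by ES48 H3K27ac. Of the 10 longest overlaps, 9 were met by ES48 H3K27ac. The H3K27ac peaks of both sets were 2000 bp wide or more, and of all ES49 H3K27ac peaks of that width 97.2% were met. In the second set there was an exception. It was chromosome 12 109240785 to 109244988, 4204 bp with a score of 1809.2, which shared 3188 bp with 3 H3K27me3 peaks.

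H3K27me3 scores level off at 3100 as well, and 22 overlapping peaks had a main partner of at least that score, in 16 H3K27me3 peaks. Their H3K27ac scores ran from 50.3 to 3100 with a median of 63.6, and 15 of the 22 were met by ES48 H3K27ac, beside 65.3% of all overlapping peaks. The rule for naming took the first of these ties. The H3K27me3 peaks at chromosome 2 31936953 to 31942773 and chromosome 15 74390918 to 74398221, each with a score of 3100, contained H3K27ac peaks of 343 and 398 bp with scores of 64.5 and 58.3, and ES48 had no H3K27ac at either. Beside H3K27me3 of such scores stood 6 flanking peaks, with H3K27ac scores from 51.2 to 952.7. All 6 were met by ES48 H3K27ac, where 76.3% of all flanking peaks were. The highest H3K27ac score was that of the peak at 52171291 on chromosome 6, and the lowest that of 153351756 to 153352141 on chromosome 2, 548 bp from H3K27me3. The peak on chromosome 16, 17910213 to 17911677, had a score of 354.2 at a gap of 424 bp. The peak on chromosome 15 from 76353618 to 76354795 had 395.8 at 975 bp. On chromosome 18, 80904264 to 80904851 had 154.5 at 405 bp, and on chromosome 5, 140011001 to 140012374 had 461.7 at 697 bp.

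Among the 10 highest-scoring flanking peaks, 5 had a score of 3100. They were chromosome 1 36611997 to 36615296, chromosome 7 53127787 to 53129837, and on chromosome 11 102176251 to 102182242, 118943731 to 118949385 and 119159931 to 119162222. On chromosome 10, 83902865 to 83904846 had 2755.0 and 126703272 to 126704501 had 1928.1. The other 3 were 102827777 to 102831420 on chromosome 15 (2613.1), 97848626 to 97850927 on chromosome 11 (1841.2) and 8668418 to 8672520 on chromosome 16 (1810.1). Their H3K27me3 neighbours had scores of 50.4 to 423.4 for 9 of the 10, and 2065.4 at 118943731. Of the 10, 5 were above the median of all H3K27me3 peaks, 89.7. All 10 flanking peaks were over 1000 bp wide and were met by ES48 H3K27ac. Of all ES49 H3K27ac peaks, 89.3% were met from 1000 bp to under 2000 bp and 97.2% at 2000 bp or more.

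The ES48 H3K27ac list was not used to choose the peaks, and it shows whether the same places were acetylated in the other line. In ES48, 132 of 202 overlapping peaks (65.3%, interval 58.3 to 71.9) and 100 of 131 flanking peaks (76.3%, 68.1 to 83.3) were met by H3K27ac. Of all 29009 ES49 H3K27ac peaks, 68.3% were, and that value lies within both intervals. The next ring, ES49 H3K27ac peaks at 1 to 5 kb from H3K27me3, gave 266 of 356 (74.7%, 69.9 to 79.2). Peaks met by ES48 were the stronger ones in both classes. Median scores were 139 for overlapping peaks met by ES48 H3K27ac and 70.5 for those not met, and 230.4 and 63.9 for flanking peaks, beside 393 and 67.2 for all.

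Width bears on these shares, since short ES49 peaks were met less often in general. Under 500 bp, 47 of 80 overlapping peaks (58.8%, 47.2 to 69.6) and 21 of 38 flanking peaks (55.3%, 38.3 to 71.4) were met by ES48 H3K27ac, beside 39.2% of all peaks of that width. The overlapping count included 8 peaks that also met EWS-FLI1, and without them it was 39 of 72 (54.2%, 42.0 to 66.0). From 1000 bp to under 2000 bp, 25 of 34 overlapping peaks (73.5%, 55.6 to 87.1) and 34 of 35 flanking peaks (97.1%, 85.1 to 99.9) were met, beside 89.3% of all. From 500 bp to under 1000 bp the shares were 55.9% and 72.9%, beside 61.4% of all, and at 2000 bp or more 93.1% and 100%, beside 97.2%. The intervals of overlapping peaks left out the value for all peaks under 500 bp, where they were above it, and from 1000 bp to under 2000 bp, where they were below it. That held without the peaks that met EWS-FLI1 too, with 72.7% (54.5 to 86.7) in the wider class. These differences were not tested.

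**Figure D4:**
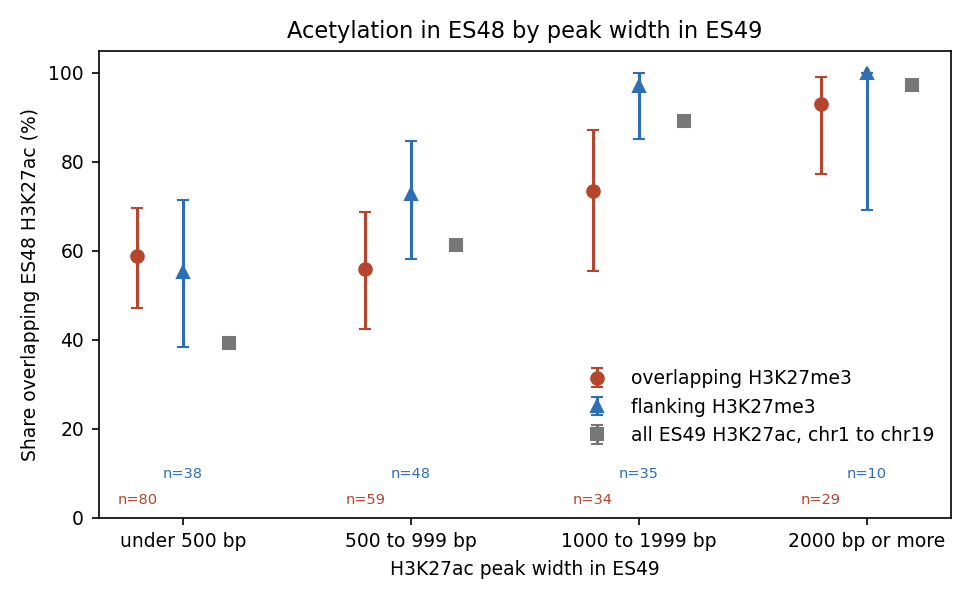
Share (%) of ES49 H3K27ac peaks met by ES48 H3K27ac, by peak width in ES49, for overlapping peaks (circles), flanking peaks (triangles) and all peaks on chromosomes 1 to 19 (squares). Bars are 95% Clopper-Pearson intervals, which cover counting error only. The share of overlapping peaks lay above that of all peaks under 500 bp (58.8% against 39.2%) and below it from 1000 bp to under 2000 bp (73.5% against 89.3%).

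Of the overlapping peaks of 1000 bp or more, 11 had no ES48 H3K27ac. The widest, the 4204 bp peak on chromosome 12 named above, was followed by chromosome 7 88356853 to 88359555 (2703 bp, score 1483.0), which held an H3K27me3 peak of 501 bp, and by 118951396 to 118953193 on chromosome 11. Chromosome 7 88356853 was named here after its values were seen. A single flanking peak of 1000 bp or more lacked ES48 H3K27ac, at chromosome 11 116306173 to 116307580 (1408 bp, score 328.1).

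At some flanking peaks, ES48 H3K27ac extended onto the H3K27me3 peak of ES49. ES48 H3K27ac overlapped the H3K27me3 neighbour of 48 of the 131 flanking peaks (36.6%, 28.4 to 45.5). Of all ES49 H3K27me3 peaks on chromosomes 1 to 19, 2.47% overlapped ES48 H3K27ac, but the neighbours were chosen for lying near H3K27ac. Of the 100 flanking peaks met by ES48 H3K27ac, 38 (38.0%, 28.5 to 48.3) were met by an ES48 peak that also overlapped the neighbouring ES49 H3K27me3 peak, which the ES49 H3K27ac peak by the rule did not touch. At chromosome 10, for instance, the ES48 peak 83902419 to 83905038 crossed into the H3K27me3 peak 83901821 to 83902600, from which the ES49 peak stood 264 bp away. At chromosome 11 the ES48 peak 97847221 to 97850606 reached over the gap of 261 bp into the H3K27me3 peak 97846454 to 97848364, which also held another ES49 H3K27ac peak. At 28 of these 38 flanking peaks (73.7%, 56.9 to 86.6), the neighbouring H3K27me3 peak was overlapped by no ES49 H3K27ac peak. The same held for 110 of all 131 flanking peaks (84.0%), a value within that interval. The ES48 peaks were also the wider ones at 92% of the 100 flanking peaks met by ES48 H3K27ac. The shares were 81.8% for the overlapping peaks met and 84.9% for all ES49 peaks met. The part that width or depth of the ES48 library has in these values was not tested.

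EWS-FLI1 met 16 of the 333 peaks. All 16 were overlapping peaks (7.92%, 4.60 to 12.5), and each of them met EWS-FLI1 peaks of both lines and H3K27ac of ES48. Among all ES49 H3K27ac peaks on chromosomes 1 to 19, 0.248% met ES49 EWS-FLI1, 0.145% met ES48 EWS-FLI1, 0.317% met either list and 0.0758% met both. Of the 22 ES49 H3K27ac peaks that met both EWS-FLI1 lists, 16 overlapped H3K27me3, and the other 6 stood at least 578 kb from it. Of the 70 that met exactly 1 list, 0 overlapped or flanked H3K27me3. At the background share of 1.15% the number would be 0.804. EWS-FLI1 met 0 of the 131 flanking peaks. By the rule that a count of 0 allows up to 3, the share could be up to 2.29%, and the Clopper-Pearson interval ran up to 2.78%. At 0.317% the number would be 0.415.

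At 15 of the 16 peaks, the 5 lists had bases in common, from 111 to 3699 bp with a median of 226 bp. Of the 16 peaks, 12 were under 1000 bp wide, and the median width was 487 bp (interval of the median 335 to 1492). That interval holds the median of the other 186 overlapping peaks, 624 bp. It also holds that of all ES49 H3K27ac peaks on chromosomes 1 to 19, 836 bp. With 16 peaks the interval is too wide to tell whether their widths differed from the others. Their H3K27me3 partners were short, at a median of 328 bp, where those of the other 186 overlapping peaks had 1285 bp. EWS-FLI1 scores were high for their lists, with a median of 565 in ES49 beside 83.4 for all ES49 EWS-FLI1 peaks on these chromosomes, and 247 in ES48 beside 57.5. Of the 16 peaks, 5 lay in 2 loci dense with EWS-FLI1 peaks (at least 10 peaks of either line joined at less than 500 kb). The other 11 lay outside such loci. Whether reads gather at any of the 16 peaks whatever the antibody, in dense loci or outside them, was not tested. The input DNA was not analysed here, so overlap of the 5 lists cannot be told apart from such a gathering of reads.

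The 16th peak differed from the others. At chromosome 10 80638413 to 80642126, the strongest of all 333 with a score of 3188.3, EWS-FLI1 of ES49 lay at 80640691 to 80641034 (score 87.6) and that of ES48 at 80641827 to 80642029 (score 82.1). The H3K27me3 peak, 303 bp long with a score of 67.2, lay at 80641800 to 80642102, so that the ES48 site fell in it and the ES49 site did not. The H3K27me3 score was under the median of its list, 89.7.

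Among the 15, the longest was on chromosome 17. There 39979715 to 39983706 (score 1812.1) was covered by H3K27me3 over 3868 of 3992 bp, by ES48 H3K27ac over 3858 bp, and by EWS-FLI1 peaks with scores of 1382.9 in ES49 and 3100 in ES48. The neighbouring 39984359 to 39985850 (score 342.0) shared 1449 of 1492 bp with H3K27me3. The same ES49 EWS-FLI1 peak, 5880 bp long, met both. At 36621538 to 36621983 on the same chromosome, a peak of 446 bp with a score of 419.5, the H3K27me3 score was 870.1 and the EWS-FLI1 scores were 1955.7 in ES49 and 1365.8 in ES48. The ES49 value was the highest of the ES49 EWS-FLI1 list on chromosomes 1 to 19.

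In the dense locus on chromosome 2, 4 short peaks stood in a row at 27353143 to 27353656, 27354375 to 27354834, 27355106 to 27355947 and 27356938 to 27357694, with H3K27ac scores of 116.6, 64.3, 213.8 and 131.1. The EWS-FLI1 scores at them ran from 224.2 to 1425.0 in ES49 and from 78.3 to 243.5 in ES48. The dense locus on chromosome 1 held 87487572 to 87490121, with an H3K27ac score of 397.8, an H3K27me3 score of 2442.3 and EWS-FLI1 scores of 1693.1 and 431.7.

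**Figure D5:**
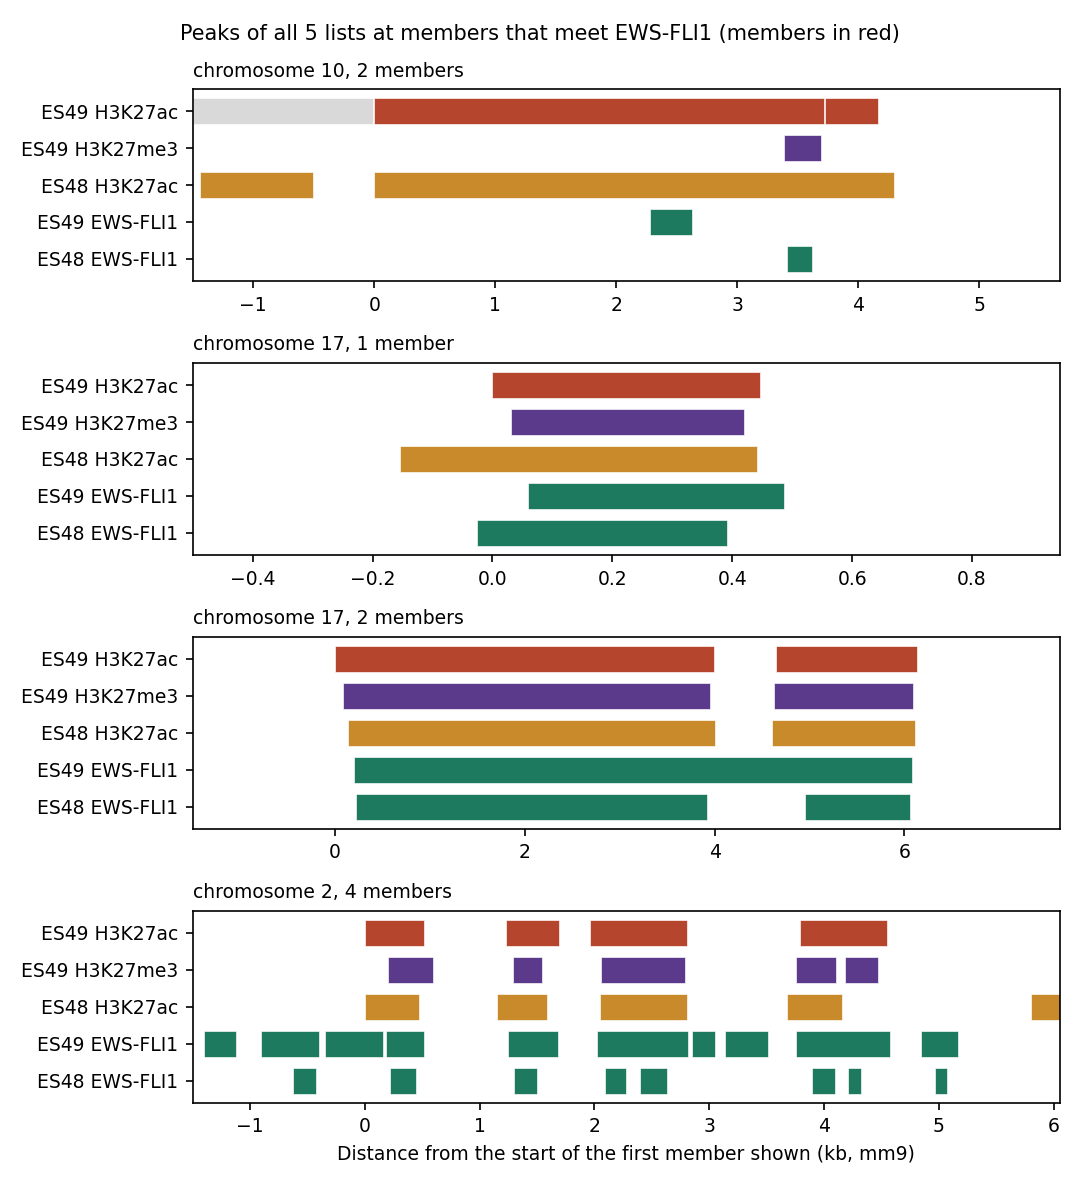
Peaks of all 5 lists at 4 places where H3K27ac peaks at H3K27me3 meet EWS-FLI1, drawn to scale as distance in kb from the first member shown. The peaks stack on one another on chromosomes 17 and 2, and on chromosome 10 the ES49 EWS-FLI1 peak lies apart from the H3K27me3 peak of 303 bp.

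The remaining 7 were of 310 to 569 bp, with H3K27ac scores from 52.0 to 128.0. Chromosome 9 held 3 of them, at 13422546 to 13423114, 115059795 to 115060104 and 115060524 to 115060846, and chromosome 5 held a pair at 80242409 to 80242804 and 80242955 to 80243332. The others were 22600223 to 22600557 on chromosome 2 and 5860532 to 5860845 on chromosome 3. Their EWS-FLI1 scores ran from 53.7 to 612.5 in ES49 and from 75.4 to 521.0 in ES48.

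EWS-FLI1 was also counted at a distance. A peak of either EWS-FLI1 list lay within 10 kb of 20 overlapping peaks (9.90%, 6.15 to 14.9), and 16 of these 20 were the peaks above. It lay within 10 kb of 1 flanking peak (0.763%, 0.0193 to 4.18). Of all ES49 H3K27ac peaks the share was 1.54%, which the flanking interval holds. Without EWS-FLI1, the other 186 overlapping peaks measured 624 bp in the median and scored 114, close to the values with the 16 included, and 116 of them (62.4%, 55.0 to 69.3) were met by ES48 H3K27ac.

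The surroundings of the peaks were poorer in acetylation than those of H3K27ac peaks in general. Within 25 kb of either side of the centre, ES49 H3K27ac covered a median of 2.07 kb around overlapping peaks and 2.15 kb around flanking peaks, the peak itself included, beside 4.06 kb around all. ES48 H3K27ac covered 2.93 and 3.40 kb, beside 4.73 kb. Around ES49 H3K27ac peaks at 1 to 5 kb and 5 to 10 kb from H3K27me3, ES49 H3K27ac covered 3.22 and 3.60 kb. ES48 H3K27ac covered 4.10 and 4.24 kb there, so cover below that of all peaks was not particular to the 333 peaks. H3K27me3 covered 3.00 kb around overlapping and 2.0 kb around flanking peaks, with highest values of 36.3 and 32.2 kb. The median was 0 around all ES49 H3K27ac peaks. It was 3.23 kb around those at 1 to 5 kb from H3K27me3 and 2.78 kb around those at 5 to 10 kb, so such cover was not particular to the 333 peaks.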

How the data were processed

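Of 6 ChIP-seq samples, 5 have peak lists, 1 library each. Per the submitters' processing notes, the tools were Bowtie 1.1.1 and SAMtools 1.2 and the build mm9. The deposited lists give each peak's position, a MACS name and the caller's score, whose scale no source here states; scores were therefore read within one list alone. Thresholds and controls of the calling are unknown.

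An overlap is at least 1 bp, a gap is the number of bases between 2 peaks, and coordinates count from 1. A count of 0 allows up to 3 of the total. The overlap code, tested on simulated data, recovered 3000 of 3000 planted pairs. Regions were named by rank: the 10 highest scores in each class, the 10 longest overlaps, the 5 strongest H3K27me3 partners in each class (first of ties), every peak meeting EWS-FLI1 outside dense loci, the fullest loci (with ties), and 3 peaks on each side of 1 kb. Added after their values were seen were the 5 H3K27ac peaks meeting EWS-FLI1 in dense loci and the third locus of 4 peaks. So were 153351756 on chromosome 2 and the wide peaks without ES48 H3K27ac. Members and lists were chosen with earlier results of these data known. Genes were not assigned, as the gene table at hand is for GRCm38, and the planned gene lists were not examined. Alternatives were a 50% overlap, other distances, the upper 50% by score, joined H3K27me3 peaks and leaving out dense loci. Software: Python 3.11.15 with scipy 1.17.1, pandas 2.3.3, numpy 2.4.6, matplotlib 3.10.9.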

Additional observations from a re-analysis of the deposited data

How the results depend on the processing

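Of 51 values recomputed under alternatives, 42 stayed within the interval of the reported value or, for counts, within 1.5 times of it. Some of the 42 could not have moved. No flanking peak met EWS-FLI1 or lay in a dense locus, so leaving those out returned the same 131 flanking peaks. Their EWS-FLI1 count of 0 could not rise under a stricter overlap or score. The 9 that moved were numbers of peaks and, with the upper 50% by score, median widths and scores. Medians of all ES49 H3K27ac peaks were not recomputed for that choice, so the comparison with the whole list was not repeated there. The number of flanking peaks was 64 within 500 bp and 230 within 2000 bp. With the upper 50% by score of both ES49 lists, 65 overlapping and 41 flanking peaks were left, with median widths of 1742 and 1374 bp and median scores of 529.6 and 484. Counting EWS-FLI1 within 1 kb added 1 flanking peak, in the ES48 list. The shares met by ES48 H3K27ac ran from 61.8% to 66.3% for overlapping and from 75.6% to 79.4% for flanking peaks. These include 2 alternatives chosen after seeing the data, leaving out peaks that meet EWS-FLI1 and taking 1 peak per locus. Without the dense loci 11 peaks met EWS-FLI1. No paired analysis was possible because each group is 1 library. Read depth is unknown, so a missing peak may be a peak not detected.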
